A study of Mus musculus with 4 samples.

Results

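The serpins described here were 7 mouse genes of clades B and A3 whose products inhibit granzymes, cathepsins or related proteases, namely Serpinb9, Serpinb9b, Serpinb6a, Serpinb6b, Serpinb1a, Serpina3f and Serpina3g. They were chosen by name, with all non-control probes whose transcript belonged to a member, out of the 18749 genes that could be named on the arrays. A probe was matched for 6 of the 7 members, with 8 probes in all, and Serpina3g is without a value here. Probes were matched by transcript accession through a table of current RefSeq records, so a probe designed on a retired record of Serpina3g would not have been matched. A probe on the arrays whose record is not in that table may be such a probe, and its values were left out. Of these 6 genes, 5 gave signals well above background on all 4 arrays, and Serpinb9b did so on none.

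RNA was measured on 4 Agilent arrays in a single dye, 1 for each of 4 conditions, so that no condition had a replicate and no p-value is given. Naive CD4 T cells came from the spleen of C57BL/6J mice labelled female, either Bach2 WT or Bach2 KO, in which Bach2flox/flox was combined with a CD4-Cre transgene. Bach2 is a transcriptional repressor that competes for AP-1 sites, and Cre driven by Cd4 deletes the floxed gene in the T cell lineage from the thymus on. The study's methods describe its mice as young adults, of both sexes for work in culture, and elsewhere in the study the controls called WT carried CD4-Cre. For these arrays the labels give only Bach2 WT, with neither the animals' age nor how many were pooled. All cells were activated for 2 days on immobilised anti-TCR-β mAb (3 µg/ml) with anti-CD28 mAb (1 µg/ml) and kept for 3 more days with IL-2, at 2.5 ng/ml by the labels and at a higher concentration by the methods. They were then collected as they were (before) or after 4 h on immobilised anti-TCR-β mAb with no added IL-2 (after). The groups compared were therefore WT Th cells before and after, and Th cells labelled Bach2 KO before and after. ChIP-seq from the same work was not used here.

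Serpins are suicide inhibitors. The target protease cleaves an exposed loop of the serpin, the serpin folds around it, and the enzyme stays covalently trapped. The clade B members lack a classical signal peptide and act largely inside the cell, where they can neutralise proteases that leak from cytotoxic or lysosomal granules. Serpinb9 is the inhibitor of granzyme B and protects lymphocytes that make it, Serpinb9b inhibits granzyme M, and Serpinb6b inhibits mouse granzyme A. Serpinb6a inhibits cathepsin G and other serine proteases, and Serpinb1a inhibits neutrophil elastase, cathepsin G and proteinase 3. Serpina3g, also known as Spi2A, inhibits cysteine cathepsins such as cathepsins B and L in activated T cells, and Serpina3f is its close relative.

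The start regions of 4 members are shown because 3 of them, Serpinb9, Serpinb6b and Serpina3f, stood far higher after re-stimulation in the results below, and Serpinb6a did not. Each sequence is the RefSeq window of the GRCm38.p6 build from 250 bases before to 50 bases after the first annotated transcription start, so it holds the proximal promoter and the beginning of the first transcribed exon. The windows lie at chr13:33004291-33004590 (plus strand) for Serpinb9, chr13:32965011-32965310 (plus strand) for Serpinb6b, chr12:104214294-104214593 (plus strand) for Serpina3f and chr13:34002745-34003044 (minus strand) for Serpinb6a. Capitals mark matches to the STAT letters TTCNNNGAA.

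Serpinb9: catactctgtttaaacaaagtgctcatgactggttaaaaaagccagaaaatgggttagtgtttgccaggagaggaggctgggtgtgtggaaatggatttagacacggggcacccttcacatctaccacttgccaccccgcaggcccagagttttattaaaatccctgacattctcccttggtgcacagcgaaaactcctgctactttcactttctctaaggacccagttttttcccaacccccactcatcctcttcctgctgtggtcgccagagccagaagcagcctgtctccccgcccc
Serpinb6b: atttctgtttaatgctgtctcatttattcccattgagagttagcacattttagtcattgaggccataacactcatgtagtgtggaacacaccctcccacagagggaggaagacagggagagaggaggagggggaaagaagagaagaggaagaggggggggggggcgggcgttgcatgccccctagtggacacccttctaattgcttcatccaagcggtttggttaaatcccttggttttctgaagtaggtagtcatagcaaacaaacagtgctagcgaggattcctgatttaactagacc
Serpina3f: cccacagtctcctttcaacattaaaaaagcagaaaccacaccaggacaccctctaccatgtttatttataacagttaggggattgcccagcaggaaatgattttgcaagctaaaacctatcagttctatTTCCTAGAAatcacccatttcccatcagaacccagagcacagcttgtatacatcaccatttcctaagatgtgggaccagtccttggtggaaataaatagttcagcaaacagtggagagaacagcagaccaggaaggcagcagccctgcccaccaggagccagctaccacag
Serpinb6a: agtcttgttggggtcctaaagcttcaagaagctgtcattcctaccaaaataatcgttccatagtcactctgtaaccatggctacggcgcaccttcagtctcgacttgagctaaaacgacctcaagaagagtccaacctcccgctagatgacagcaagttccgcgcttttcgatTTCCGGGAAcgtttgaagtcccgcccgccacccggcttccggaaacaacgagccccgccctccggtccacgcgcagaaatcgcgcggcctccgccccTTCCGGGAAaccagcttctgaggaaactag

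Motifs of 4 kinds were searched on both strands of the windows of 6 members (not Serpinb1a). The letters were TGANTCA for AP-1, TTCNNNGAA for STAT, GGAAA for the NFAT core, and the NF-kB consensus, which is given by name. Among 32841 windows of the same length over all genes, AP-1 letters occurred in 7.81%, STAT letters in 8.3%, the NFAT core in 61.4% and the NF-kB consensus in 8.46%. None of the 6 member windows held the AP-1 letters, which says only that they were not in this stretch. The STAT letters occurred 1 time in Serpina3f, with the first base at -121 from the start, 1 time in Serpina3g at -33, and 2 times in Serpinb6a, at -77 and at 21. Serpinb9 and Serpinb6b held no STAT match. The window at another annotated start of Serpinb6a held none either. Whether any match bears on the signals was not tested. The NFAT core occurred in all 6 windows, 5 times in Serpina3f, 4 times in each of Serpinb6a and Serpina3g, 3 times in Serpinb9b, 2 times in Serpinb9 and 1 time in Serpinb6b. In Serpina3f the core that begins at -122 overlapped the STAT match, as did the cores at -78 and 26 in Serpinb6a. The NF-kB consensus was found only in Serpina3g, at -85, where it overlapped an NFAT core. GC content was 51.0% for Serpinb9, 48.3% for Serpinb6b, 46.0% for Serpina3f and 55.7% for Serpinb6a, around the median of 52.7% over all windows.

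**Figure D1:**
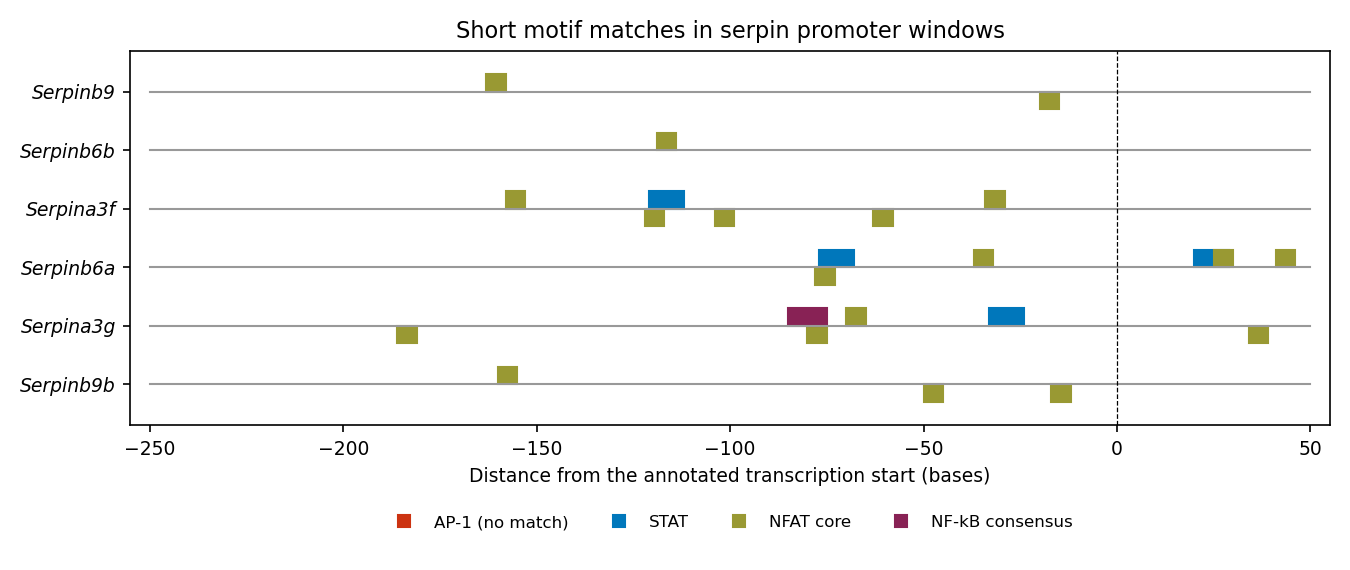
Positions of motif matches (coloured boxes) along the windows of 6 serpins, against the distance from the annotated transcription start in bases. Boxes above a line are matches on the gene's own strand and boxes below it on the opposite strand. AP-1 letters had no match, and only Serpina3f, Serpinb6a and Serpina3g held the STAT letters.

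The arrays were alike in detection, with 53.6% to 54.0% of probes well above background and no saturated spot, but the re-stimulated arrays were dimmer, with a 75th percentile signal of 313 (WT) and 353 (Bach2 KO) against 436 and 434 before. All 10 T cell markers were well above background on every array, and their summed signal was 489 and 455 in WT cells before and after, against 432 and 452 in cells labelled Bach2 KO. The Bach2 probe gave 6.72 (WT) and 6.06 (Bach2 KO) before and 10.6 and 8.73 after, relative to the 75th percentile of each array, a log2 difference of -0.15 and -0.28, too small to check the genotype by. Other genes moved with the genotype labels. Of 4 Y-linked genes, 3 were detected well above background where the label was Bach2 KO and none on the WT arrays, although all mice were labelled female. Of 10 mast cell and basophil markers with a probe, 7 were well above background on each array labelled Bach2 KO against 2 and 1 in WT cells, with summed signals of 3.37 and 5.42 against 0.487 and 1.05. Those 7 were Cpa3, Mcpt8, Prss34, Fcer1a, Gata2, Hdc and Cma1, of which Mcpt8 was at least 20.5-fold higher before and at least 20.3-fold after, and Cpa3 at least 22.5-fold and 11.9-fold. Ms4a2, Mcpt4 and Tpsb2 were not well above background in any of the 4. Summed myeloid markers were 1.8 and 1.14 on the arrays labelled Bach2 KO against 0.614 and 0.375, with Lyz2, Itgam, Elane and S100a8 not well above background anywhere. Ncr1 for NK cells and Ms4a1, Cd79a, Pax5 and Cd22 for B cells were likewise not well above background anywhere, and Cd8a was so only after re-stimulation in cells labelled Bach2 KO.

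Signals below are relative to the 75th percentile of all probes on their array, which is set to 1. Signals of different genes were read from different probes, so levels are compared between arrays and never between genes. The ± beside a log2 difference is the error the scanner software assigned to the signals, which covers neither culture nor animal. As further guides to error, repeat spots of a probe had a median SD of 0.0531 to 0.0635 on the log2 scale, and the probes of the same gene differed with a median SD of 0.0885 (genotypes before), 0.11 (genotypes after), 0.151 (re-stimulation of WT cells) and 0.14 (re-stimulation of cells labelled Bach2 KO). In whole cultures, fewer cells that express a gene and less RNA per cell cannot be told apart.

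The first question was how the serpins stood 4 h after re-stimulation, within each genotype. The inhibitors of granzymes B and A and Serpina3f were all more than 7-fold higher after re-stimulation in both genotypes, while Serpinb6a and Serpinb1a stayed within 2-fold. Of the 5 members measured, 3 were at least 2-fold higher and 0 were lower in WT cells, where 13.2% of 12388 genes were at least 2-fold higher and 13.5% lower. The count was again 3 higher and 0 lower in cells labelled Bach2 KO, where 12.4% of 12394 genes were higher and 13.0% lower. The members' median log2 difference was 3.95 for WT and 2.97 for Bach2 KO cells, and the median over all genes was -0.01 and 0.01. With 5 genes chosen while these results were known, the counts are a description of the members only.

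Serpinb9 was read by 2 probes to NM_009256. The brighter gave 0.297 in WT and 0.483 in Bach2 KO cells before, and 4.58 and 5.54 after. The other gave 0.351 and 0.479 before, and 3.45 and 3.55 after. Both probes put the re-stimulated arrays far above the others. The log2 difference in WT cells was 3.95 ± 0.21 (15.4-fold) by the brighter probe and 3.30 ± 0.21 (9.83-fold) by the other, and in cells labelled Bach2 KO it was 3.52 ± 0.21 (11.5-fold) and 2.89 ± 0.21 (7.41-fold). The probes thus differed by an SD of 0.46 in WT and 0.45 in Bach2 KO cells, more than the median gene, with both far past 2-fold. In WT cells 1.21% of genes were as high or higher by this measure, and 1.4% in cells labelled Bach2 KO.

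Serpinb6b had 1 probe (NM_011454), with 4.24 in WT and 4.0 in Bach2 KO cells before, and 72.9 and 71.2 after. The genotypes were almost level in each state, and the re-stimulated cells were high. The difference after re-stimulation was 4.10 ± 0.20 (17.2-fold) in WT cells and 4.15 ± 0.20 (17.8-fold) in cells labelled Bach2 KO, beyond all but 1.1% and 0.815% of genes. The responses of the genotypes differed by 0.05 ± 0.29, within the scanner error.

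Serpina3f was read by 2 probes to NM_001033335. The first gave 0.143 in WT and 0.328 in Bach2 KO cells before, and 3.99 and 2.57 after. The second gave 0.0941 and 0.364 before, and 4.1 and 2.93 after. Both probes thus gave the same order of the 4 arrays, with WT cells lowest before and highest after. The log2 difference in WT cells was 4.81 ± 0.22 (28.0-fold) and 5.44 ± 0.24 (43.5-fold) by these probes, and in cells labelled Bach2 KO it was 2.97 ± 0.21 (7.83-fold) and 3.01 ± 0.21 (8.07-fold). In WT cells 0.662% of genes were as high or higher, and 2.01% in cells labelled Bach2 KO.

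Serpinb6a had 1 probe (NM_009254), which gave 2.29 in WT and 3.42 in Bach2 KO cells before, and 1.88 and 2.42 after. The genotypes kept their order in both states, and the re-stimulated cells were lower by small amounts, -0.29 ± 0.20 in WT cells (1.22-fold) and -0.50 ± 0.20 in cells labelled Bach2 KO (1.41-fold). When arrays were scaled to Cd3e in place of the 75th percentile, the WT difference was 0.01, so its sign is not settled.

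Serpinb1a had 1 probe (NM_025429), with 1.42 in WT and 1.51 in Bach2 KO cells before, and 0.97 and 1.99 after. The cells labelled Bach2 KO were highest after re-stimulation, and WT cells were lowest then. WT cells thus differed by -0.55 ± 0.20 on re-stimulation (1.46-fold lower) and cells labelled Bach2 KO by 0.40 ± 0.20 (1.32-fold higher). Both values were under 2-fold, and 26.7% and 29.8% of genes lay as far or farther in the same direction.

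Serpinb9b, by 1 probe to NM_011452, gave 0.00792 and 0.00872 before and 0.0107 and 0.0112 after, in WT and Bach2 KO cells respectively. None of these was well above background, so no difference was formed. The scanner signals behind them, 3.35 to 3.97, were below the lowest signal well above background on the arrays, 14.5 to 17.2.

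**Figure D2:**
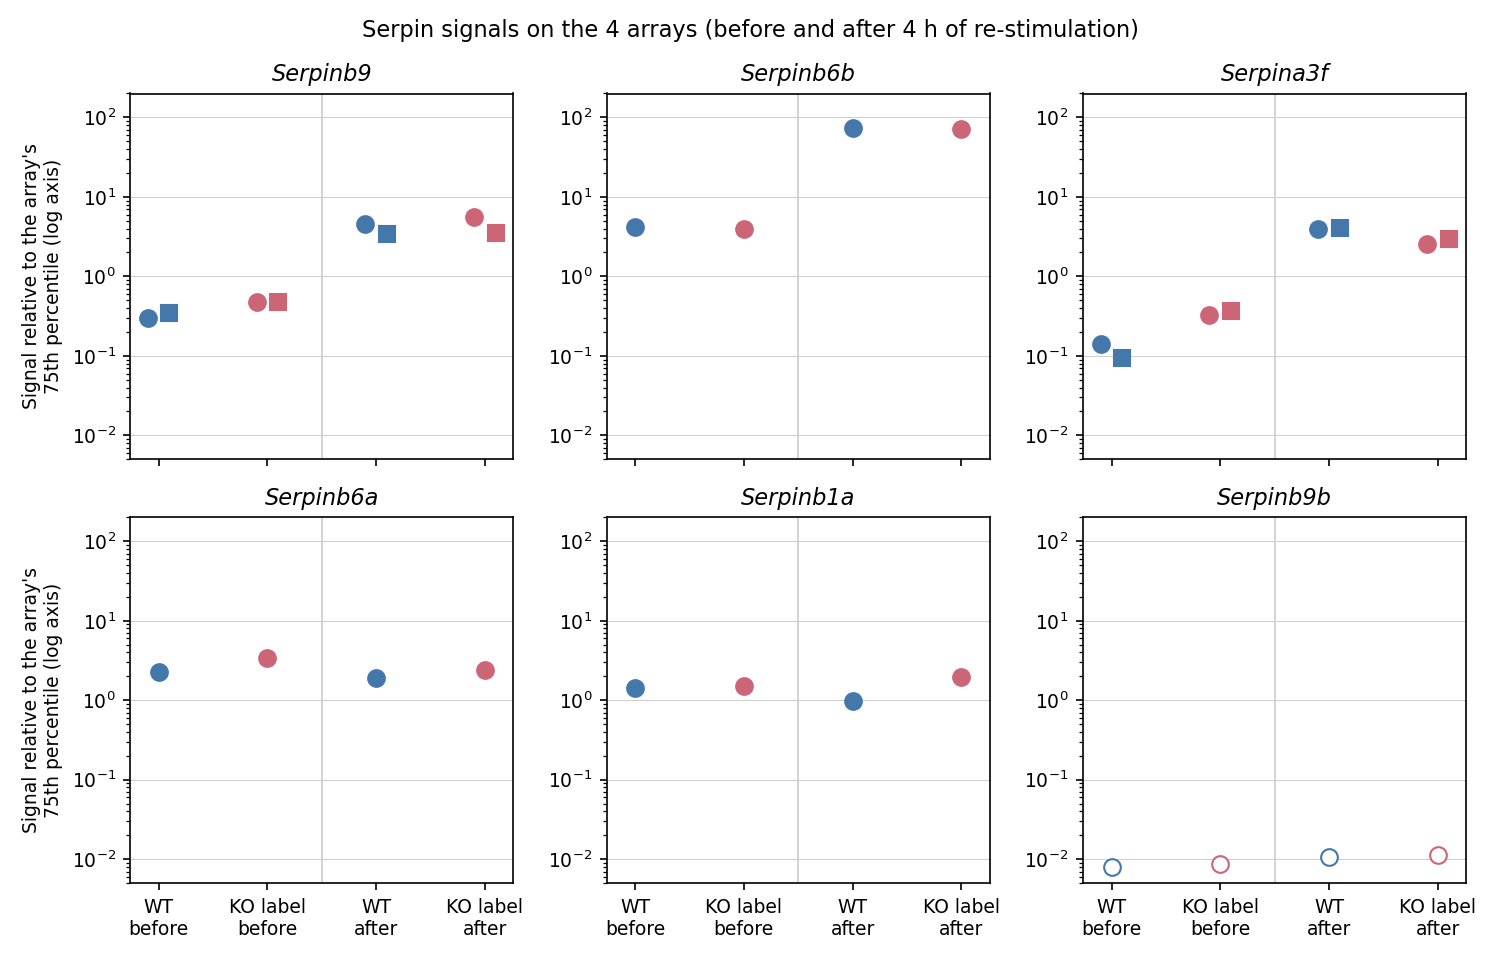
Signal of each serpin probe on the 4 arrays, relative to the 75th percentile of the array (log axis), for WT cells (blue) and cells labelled Bach2 KO (red) without and with 4 h of re-stimulation, with 1 array per condition. Circles and squares are the probes of a gene and open circles are not well above background. Serpinb6b stood at 4.24 and 4.0 before and at 72.9 and 71.2 after, and Serpina3f was higher in cells labelled Bach2 KO before and lower after.

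The second question was how the genotypes differed in each state. Before re-stimulation, Serpina3f was higher in cells labelled Bach2 KO by 1.20 ± 0.23 (2.3-fold) by the first probe and 1.95 ± 0.24 (3.87-fold) by the second, an SD between probes of 0.53. Serpinb9 was higher by 0.70 ± 0.21 (1.63-fold) and 0.45 ± 0.21 (1.36-fold) by its probes, and Serpinb6a by 0.58 ± 0.20 (1.49-fold). Serpinb1a and Serpinb6b differed by 0.09 ± 0.20 and -0.09 ± 0.20, within the scanner error. Thus 1 of 5 members, Serpina3f, was at least 2-fold higher and 0 were lower, among 5.26% of 12136 genes higher and 2.82% lower. The members' median was 0.58 against 0.00 over all genes. Serpina3f was not past 2-fold when the background was corrected by normexp, which gave 0.61.

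After re-stimulation, Serpinb1a was higher in cells labelled Bach2 KO by 1.04 ± 0.20 (2.05-fold), and no other member was past 2-fold. Again 1 of 5 members was higher and 0 were lower, among 5.17% of 12348 genes higher and 3.85% lower, with a members' median of 0.27 and 0.02 over all genes. The Serpinb1a value lay at the edge of the 2-fold rule, and 4.97% of genes were as high or higher. Under normexp it was 0.95, below the rule. Serpina3f was lower in cells labelled Bach2 KO, by -0.63 ± 0.20 (1.55-fold) and -0.48 ± 0.20 (1.4-fold) by its probes, the opposite side from before. Serpinb9 differed by 0.27 ± 0.20 and 0.04 ± 0.20, Serpinb6a by 0.37 ± 0.20 (1.29-fold) and Serpinb6b by -0.03 ± 0.20. The sign for Serpinb6b depended on the scaling and reached 0.06. The Y-linked, mast cell and myeloid signals given above moved with the genotype labels in both states, and their part in these differences was not tested.

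Taking the difference of the responses, 5 members could be compared because each was well above background on all 4 arrays. Serpina3f was less raised in cells labelled Bach2 KO, by -1.84 ± 0.30 (3.57-fold) and -2.43 ± 0.31 (5.4-fold) by its probes, and only 0.574% of genes were as low or lower. Serpinb1a lay on the other side, at 0.95 ± 0.29, with 2.16% of genes as high or higher. Serpinb9 was at -0.43 ± 0.29, with -0.41 ± 0.29 by its other probe, and Serpinb6a at -0.21 ± 0.29. So 1 of 5 members was at least 2-fold lower and 0 were higher, among 3.0% of 10810 genes lower and 1.82% higher. The members' median was -0.21 and that of all genes 0.00. The value uses the same 4 arrays as the comparisons above and adds no measurement to them.

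**Figure D3:**
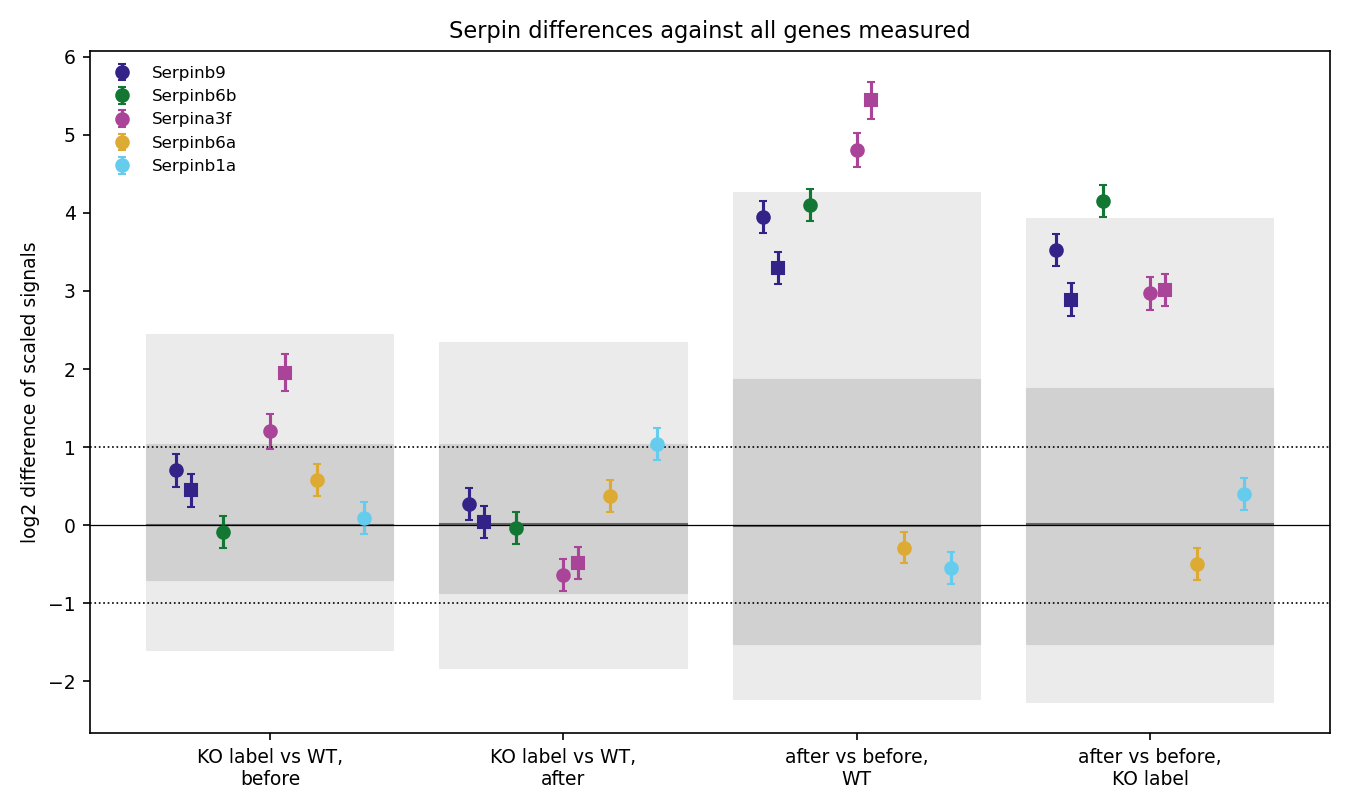
log2 differences of scaled signals for 5 serpins in the 4 comparisons. Circles and squares are the probes of a gene with their scanner error, grey areas hold the middle 90% (dark) and 98% (light) of all genes, the line inside them is the median, and dotted lines mark 2-fold. Serpina3f in WT cells (4.81 and 5.44) and Serpinb6b in cells labelled Bach2 KO (4.15) lay above the light area.

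Ordering the arrays for each member, and calling neighbours distinct where they lay more than 2 scanner errors apart, gave a different order for each gene. For Serpinb9 the re-stimulated arrays of both genotypes were not distinct, and cells labelled Bach2 KO before (0.483) stood above WT cells before (0.297). For Serpinb6b the genotypes were not distinct in either state. For Serpina3f all steps were distinct, from WT after, through Bach2 KO after and Bach2 KO before, down to WT before. For Serpinb6a only the top step, from Bach2 KO before to Bach2 KO after, was distinct. For Serpinb1a only the bottom step, from WT before to WT after, was distinct.

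Genes with the profile nearest to each member over the 4 arrays were sought among 10810 genes well above background on all of them, by the root mean square difference of log2 profiles centred on their own mean. Profiles of 4 points are easily alike, so these are descriptions. For Serpina3f only 2 genes came within 0.2, Mpeg1 at 0.14 and P2ry2 at 0.195, and the third nearest was Gramd1b at 0.258. Mpeg1, which encodes the pore-forming protein perforin-2, had log2 differences of 1.46 and -0.45 between genotypes before and after, and 5.01 and 3.11 on re-stimulation, like Serpina3f in sign throughout. For Serpinb6b 10 genes came within 0.2, led by Il4i1 (0.107), Map2k3os (0.133) and Ocstamp (0.145). Il4i1 encodes a secreted amino acid oxidase first found as induced by IL-4. For Serpinb9 it was 6 genes, led by Grhl1 (0.114), Bcat1 (0.143) and Jak2 (0.174), of which Jak2 is a cytokine receptor kinase and Bcat1 a branched-chain amino acid transaminase. For Serpinb1a, 102 genes came within 0.2, led by Tle1 (0.0402), Klf10 (0.0688) and Nefh (0.0828), and for Serpinb6a 507, led by Sh3bgrl (0.0272), Rtl8c (0.0436) and D16Ertd472e (0.0514).

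The granzymes, targets of several of these serpins, differed more with the genotype label than with re-stimulation. Of 11 granzyme and perforin genes, 8 of 10 measured were at least 2-fold higher in cells labelled Bach2 KO before and 8 of 10 after, with medians of 2.79 and 2.22, and none was 2-fold lower. Gzme, Gzmf, Gzmg and Gzmn before, and Gzmf, Gzmg and Gzmk after, were well above background only on the array labelled Bach2 KO. They could hardly count as lower. On re-stimulation 3 of 7 genes measured from the list were higher in WT cells and 3 of 11 in cells labelled Bach2 KO, with medians of 0.88 and 0.67. Among all genes, 5.26% and 5.17% were at least 2-fold higher between genotypes before and after, and 13.2% and 12.4% on re-stimulation. The same shares are the scale for the counts in the lists below. The textbook partners of the serpins are named here outside the rule for named genes, with their values known. Gzmb, the target of Serpinb9, gave 121 in WT and 289 in Bach2 KO cells before, and 143 and 374 after. It was thus higher in cells labelled Bach2 KO by 1.25 and 1.39, and on re-stimulation differed by only 0.24 and 0.37, while Serpinb9 showed the reverse balance. Gzma, the target of Serpinb6b, gave 7.57 and 72.5 before and 21.3 and 145 after, a genotype difference of 3.26 and 2.77 where Serpinb6b showed -0.09 and -0.03. Gzmm, the target of Serpinb9b, gave 0.592 and 0.427 before and 0.603 and 0.39 after, and was lower in cells labelled Bach2 KO by small amounts, -0.47 and -0.63. By the rule for named genes, Gzmd was higher in cells labelled Bach2 KO by 5.12 before, and Gzmg, Gzme and Gzmf, dim in WT cells, by at least 5.44, 4.62 and 3.86. These genes are close relatives whose probes could share signal.

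Cathepsins, most of them cysteine or aspartic proteases of lysosomes that clade A3 serpins can meet, were mostly within 2-fold in each comparison. In WT cells 1 of 12 measured was at least 2-fold higher on re-stimulation and none lower, and the median was -0.49. That gene was Ctsl, encoding cathepsin L, with 0.772 in WT and 0.474 in Bach2 KO cells before, and 16.2 and 6.55 after. It was 21.0-fold higher on re-stimulation in WT cells and 13.8-fold in cells labelled Bach2 KO. As for Serpina3f, the genotype label went with a lower signal after re-stimulation, -1.31 for Ctsl and -0.63 for Serpina3f, but before it Ctsl was also lower (-0.70) where Serpina3f was higher. In cells labelled Bach2 KO, 1 of 13 was higher and 1 lower, Lgmn, the asparaginyl protease legumain, at -1.38. Between genotypes, 3 of 13 were at least 2-fold higher before, namely Ctsh (2.96, 7.8-fold), Lgmn (1.38) and Ctsk (at least 1.31), and none lower. After re-stimulation 2 of 12 were higher, Ctsh by at least 3.20 and Ctsd by 1.27, and Ctsl was the 1 that was lower. Ctsd, named for this count, encodes the aspartic cathepsin D.

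Of the neutrophil and mast cell serine proteases that Serpinb1a and Serpinb6a inhibit, Ctsg, encoding cathepsin G, was higher in cells labelled Bach2 KO by 4.02 before and 3.62 after. Cma1, a mast cell chymase, was higher by at least 3.54 and 3.35. Elane, encoding neutrophil elastase, and Mcpt4 were not well above background anywhere, and Prtn3 was measured in 1 array only. Cma1 is itself among the mast cell and basophil markers given above, so its likeness to them adds nothing. Ctsg is not among them and was brighter on the same arrays.

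Cystatins, the other family of cathepsin inhibitors, were partly higher after re-stimulation, in 3 of 6 genes measured in WT cells (median 1.08) and 5 of 7 in cells labelled Bach2 KO (median 2.26), with none lower. These counts lean to higher. Stfa2 and Stfa3 in WT cells, and Stfa1, Stfa2 and Stfa3 in cells labelled Bach2 KO, were measured only through the re-stimulated array. They could hardly count as lower, and the median of 2.26 is itself the bound for Stfa1. Cst6 was 3.58 higher for WT and 4.09 higher for Bach2 KO cells. The stefin A genes Stfa1, Stfa2 and Stfa3 were all higher in cells labelled Bach2 KO after re-stimulation, by at least 1.99 for Stfa1, by 3.65 for Stfa2 and by 2.76 for Stfa3. In these cells Stfa3 was at least 5.09 and Stfa2 at least 4.28 higher on re-stimulation. Before re-stimulation 0 of 4 cystatins measured were past 2-fold between genotypes.

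**Figure D4:**
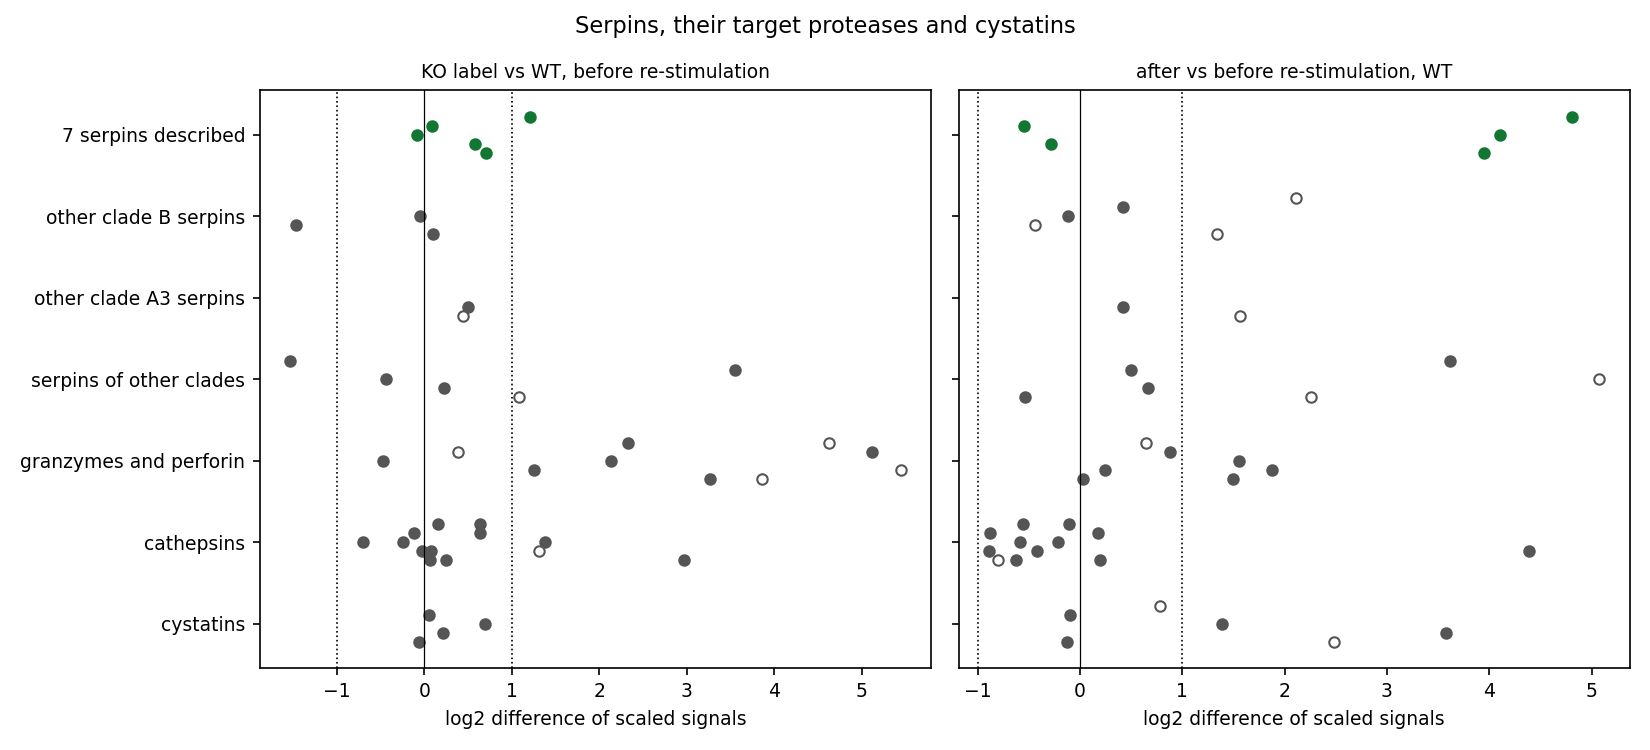
log2 differences for the 5 serpins measured (green), other serpins, their target proteases and cystatins (grey), for cells labelled Bach2 KO against WT cells before re-stimulation (left) and for WT cells after against before (right). Each point is a gene, open points are bounds where the dimmer array was not well above background, and dotted lines mark 2-fold. Granzymes spread to 5.44 on the left, whereas Serpinb9, Serpinb6b and Serpina3f stood between 3.95 and 4.81 on the right.

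Few other serpins were detected. Of 55 serpin genes with a probe, 10 were well above background on all 4 arrays, and 5 of these were members. Among all 18749 genes with a probe, 10810 were so. Among 20 other clade B genes with a probe, 2 of 5 measured were at least 2-fold higher on re-stimulation in WT cells (median 0.42) and 4 of 7 in cells labelled Bach2 KO (median 1.03), with none lower. Of the genes counted as higher, only Serpinb2 in cells labelled Bach2 KO was well above background on the arrays of both states. The others, Serpinb1b, Serpinb5 and Serpinb6d, were measured only through the re-stimulated array and could hardly count as lower. Serpinb6d was at least 2.11 and 1.90 higher in WT and Bach2 KO cells, Serpinb5, the tumour suppressor maspin, at least 1.40 higher in Bach2 KO cells and not well above background in WT cells, and Serpinb2, a plasminogen activator inhibitor, was higher by 1.03 in cells labelled Bach2 KO. Between genotypes Serpinb2 was lower by -1.47 before, 1 of 3 measured, and after re-stimulation 2 of 7 were higher, Serpinb1c by at least 1.35 among them. Other clade A3 genes were near the background, where Serpina3j was at least 1.56 higher on re-stimulation in WT cells and Serpina3m stayed within 2-fold. In the remaining clades, Serpinf1, encoding the secreted factor PEDF, was 11.7-fold higher in cells labelled Bach2 KO before, and was 12.2-fold higher on re-stimulation in WT cells. Its signal thus stood high on the 3 arrays other than WT before. Serpini1 was lower in cells labelled Bach2 KO by -1.53 before and -1.79 after.

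On chromosome 13 the RefSeq annotation holds 16 Serpinb genes, of which 13 had a probe, 8 were well above background on any array and 4 on all. The scale for the counts on all arrays, here and on chromosome 12, is 10810 of all 18749 genes. In order along the chromosome, Serpinb6b and Serpinb9 are next to each other among these genes, followed by Serpinb9b, and Serpinb6a closes the far end of the cluster. The adjacent genes Serpinb6b and Serpinb9 were both more than 11-fold higher on re-stimulation by the brighter probe, while Serpinb9b beside them was not well above background, and Serpinb1a, which opens the cluster, was within 2-fold. In the Serpina3 cluster of chromosome 12, with 10 genes, 8 had a probe, 3 were well above background on any array and Serpina3f alone on all 4. Serpina3g is the next of these genes after Serpina3f. The arrays' probe sequences were not used here, so signal shared between such close relatives could not be checked.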

How the data were processed

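RNA of Th cells was measured on 4 Agilent whole mouse genome arrays, 1 per condition, grouped by their labels. The authors deposited an intensity per spot with its flags, made by Feature Extraction 10.7 per the labels, and a table of log2 values. Those log2 values equal the intensity on a log2 scale less the 75th percentile of the array, within 0.01 for at least 41001 of 41173 probes, and are not centred per gene (column medians -4.09, -4.03, -3.79 and -3.77). The paper does not describe the array processing.

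Here, spots flagged as uneven or outliers (107 to 120 per array) were left out, spots of a probe were averaged in log2, and the array's 75th percentile was subtracted. Names for 27479 probes (66.7%) came from a RefSeq table of GRCm38.p6. A gene was read from its probe with the highest mean signal, and used where it was well above background on at least 1 array compared. A dimmer side below background was raised to its array's lowest signal well above background, which gives a bound. A gene used through 1 array only could hardly count as lower on that array, so counts among dim genes lean to higher there. No test was made, since no condition had a replicate, and genes were counted past 2-fold, a rule of size, and precision is limited by how few arrays there are. Up to 4 genes per related list with the largest differences, and 3 nearest profiles per member, were named. The members and lists were chosen with earlier results of these data known. Python 3.11.15, pandas 2.3.3, R 4.3.3 and limma 3.58.1 were used, the counting was tested on simulated data, and 10 alternatives were tried. A result for 1 other serpin is not reported here.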

Additional observations from a re-analysis of the deposited data

Results flagged for a closer look

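Serpina3f differed between genotypes in opposite directions in the 2 states, by 1.20 on the log2 scale (Bach2 KO higher) before re-stimulation and by -0.63 (Bach2 KO lower) after. The same reversal was seen with its other probe, at 1.95 and -0.48. With 1 array per condition the difference was not tested. Of 11520 genes measured in both states, 1492 (13.0%) were counted as opposite in their genotype differences. Such a share depends on how small a difference is counted. That size is not given here, so the share does not rank the Serpina3f values.

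Serpinb1a differed on re-stimulation in opposite directions in the 2 genotypes, by -0.55 (WT) and 0.40 (labelled Bach2 KO). The difference was not tested, and it rests on 1 probe. Of 11818 genes measured in both genotypes, 458 (3.88%) were counted as opposite in their re-stimulation differences. This share, too, depends on how small a difference is counted, which is not given here. Both values for Serpinb1a kept their sign under every alternative, with ranges of -0.84 to -0.25 and of 0.13 to 0.65. The value of 0.40 lay within 2 scanner errors of 0.20, however. By the rule used for the order of the arrays, the arrays labelled Bach2 KO were therefore not distinct, and the opposite direction is not settled.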

How the results depend on the processing

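No setting reversed a difference past 2-fold. Of 225 member values under the alternatives, 182 stayed within the median SD between probes of a gene of the value reported and 43 moved by more. Of 116 medians and counts, held to the same SD and to a factor of 1.5, 102 stayed and 14 moved. For the members' median difference these were 3.65 (re-stimulated WT) and 2.70 (re-stimulated Bach2 KO) with scaling to the array median, 0.72 (genotypes before), 4.24 and 3.23 with scaling to Cd3e, 0.48, 3.36 and 2.29 with normexp and quantile normalization, and 0.16 (genotypes after) and 3.62 (re-stimulated WT) when a gene's probes were averaged. The count of members at least 2-fold higher between genotypes was 0 before and 0 after with normexp, whose offset of 50 is added to every signal, and 0 before and 0 after with a 3-fold rule. The median of all genes moved under scaling to Cd3e by 0.30 and 0.26 on re-stimulation and 0.14 between genotypes before, under scaling to the median by -0.30 and -0.27 on re-stimulation, and with no filter by 0.34 and 0.29 on re-stimulation and 0.10 between genotypes before. Serpina3f before ranged from 0.61 to 1.58, its difference of responses from -2.13 to -1.26, and Serpinb6b between genotypes from -0.15 to 0.05 before and from -0.12 to 0.06 after. No paired analysis and no model over the 4 arrays was run. Depth in the sense of signal over background limits Serpinb9b, which had no measured level, and the dim side of Serpina3f in WT cells before. Signal shared between probes of close paralogs was not checked, and for Serpina3g only the start region was described, with no array signal.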
